A study of Mus musculus with 2 samples.

Results

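The genes examined here are 10 that make or steer ovarian steroid hormones, namely Star, Cyp11a1, Fdxr, Fdx1, Hsd3b1, Cyp19a1, Cyp17a1, Nr5a1, Nr5a2 and Lhcgr, out of 21887 mouse protein-coding genes. They were read in a ChIP-seq library made with an antibody to FOS, which pairs with JUN proteins to form AP-1, from granulosa cells, the somatic cells around the oocyte. The cells came from wild-type female mice aged 25 days that were primed with PMSG, a follicle-growing gonadotropin, and collected 3 h after hCG, a hormone that stands in for the luteinizing hormone surge. A peak was counted for a gene if the authors' annotation gave that gene as the nearest one or named it as the feature in which the peak lies. By this rule 16 of the 2374 peaks belonged to 8 of the 10 genes. For Fdx1 and Hsd3b1, which had none, the nearest peak on the chromosome was taken, so 18 peaks are described. The series has 2 libraries, and the other, whose label names no antibody, was not analysed here. There is 1 FOS library and no untreated sample. The number of animals behind the library and the read depth are unknown. All values therefore describe a single peak list, carry no error between animals, and were not tested.

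Steroid synthesis begins when StAR, the product of Star, moves cholesterol to the inner mitochondrial membrane. There the enzyme CYP11A1 makes pregnenolone with electrons that pass from FDXR to FDX1, and HSD3B1 turns pregnenolone into progesterone. CYP17A1, in the ovary chiefly an enzyme of theca cells, makes androgens, and CYP19A1, the aromatase of granulosa cells, converts them to oestrogens. NR5A1 (SF-1) and NR5A2 (LRH-1) are related nuclear receptors that bind the promoters of many of these genes, and LHCGR is the receptor through which luteinizing hormone and hCG raise cAMP. After the ovulatory surge follicles shift from making oestrogen to making progesterone.

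Promoters of Fdxr, Cyp11a1 and Cyp19a1 are shown to place the peaks of these genes. The Fdxr promoter (chr11:115276970-115277219, GRCm38.p6, the assembly that mm10 names, minus strand) was the only one among 11 RefSeq promoter entries, of 7 of the genes, that a peak overlapped. Capitals mark the 23 bases inside the peak. Star, which also had a promoter peak, and Cyp17a1 and Nr5a1 had no such entry. The Cyp11a1 promoter (chr9:58014702-58014951, plus strand) ends at a TSS 2.3 kb from the centre of a peak of score 92. Its capitals mark a match to the C/EBP motif. The entries of Cyp19a1 are given for the start nearest to the peak (chr9:54228915-54229164, minus strand, no capitals) and for the start that the authors' distance refers to within 301 bp (chr9:54193744-54193993, minus strand), where capitals mark a relaxed AP-1 match. Each line holds the 250 bases before the transcription start site (TSS).
Fdxr: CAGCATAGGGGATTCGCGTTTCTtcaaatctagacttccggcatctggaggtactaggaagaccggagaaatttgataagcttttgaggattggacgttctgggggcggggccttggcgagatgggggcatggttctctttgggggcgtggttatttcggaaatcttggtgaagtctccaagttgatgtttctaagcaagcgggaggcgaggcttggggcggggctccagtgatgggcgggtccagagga
Cyp11a1: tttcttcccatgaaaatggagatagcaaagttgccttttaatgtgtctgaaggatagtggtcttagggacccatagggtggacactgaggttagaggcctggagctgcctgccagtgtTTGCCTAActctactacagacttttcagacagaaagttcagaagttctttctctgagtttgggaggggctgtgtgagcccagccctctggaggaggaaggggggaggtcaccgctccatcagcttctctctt
Cyp19a1 middle start: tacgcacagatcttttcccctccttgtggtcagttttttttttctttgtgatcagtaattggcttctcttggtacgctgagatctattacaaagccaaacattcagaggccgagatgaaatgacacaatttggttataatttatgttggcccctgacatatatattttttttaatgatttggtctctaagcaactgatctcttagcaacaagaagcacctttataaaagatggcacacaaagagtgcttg
Cyp19a1 proximal start: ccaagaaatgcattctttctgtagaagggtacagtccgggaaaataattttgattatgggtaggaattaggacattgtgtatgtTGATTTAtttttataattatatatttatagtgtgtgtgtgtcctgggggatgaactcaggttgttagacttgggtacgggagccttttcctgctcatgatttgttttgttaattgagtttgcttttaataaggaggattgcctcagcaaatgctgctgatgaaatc

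Peaks were found at 8 of the 10 genes, against 8.69% of all protein-coding genes (1902 of 21887). The 10 genes were chosen with earlier results of these data known, so this contrast is no test of enrichment. Fdxr had 3 peaks, Nr5a2 had 4, Star, Cyp11a1 and Nr5a1 had 2 each, and Cyp19a1, Cyp17a1 and Lhcgr had 1 each. Among the 1658 protein-coding genes that were the nearest gene of a peak, 15.8% had at least 2 peaks and 0.905% (15 genes) had at least 4. The genes' peaks were of middling rank. Their median score was 59 with a range of 29 to 104, against a median of 67 and a range of 13 to 2234 over all peaks. The score is the authors' own whole-number value for each peak, and its scale is not stated. Of the 16 peaks 6 (37.5%) reached the median of the list, against 51.0% of all peaks, and 1 (6.25%) reached the upper quartile of 99, against 26.0%.

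**Figure D1:**
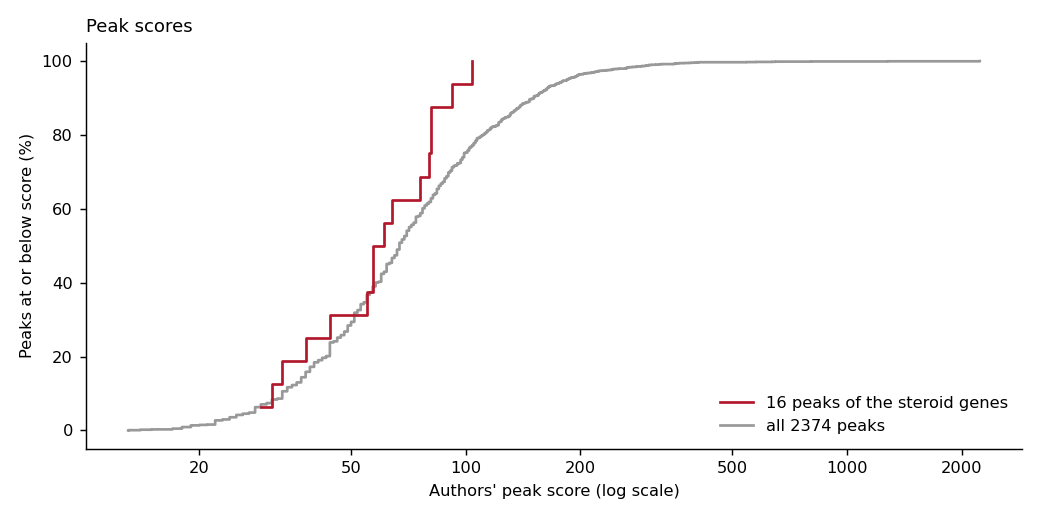
Cumulative share of peaks (y axis, percent) at or below each authors' peak score (x axis, log scale) for the 16 peaks of the steroid genes (red) and all 2374 peaks (grey). The red line ends at 104, while the grey line runs on to 2234.

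Star, Cyp11a1 and Fdxr, which serve cholesterol entry and cleavage, held their peaks within 11 kb of the TSS. Star carries cholesterol into mitochondria, and its gene (chr8:25808474-25815982, plus strand) had a peak at its promoter and a stronger one beyond its far end. The promoter peak (chr8:25808265-25808532) was centred 115 bp upstream of the TSS and scored 81, with 37.2% of all peaks scoring higher. It was 268 bp wide, the narrowest width in the list. The peak downstream (chr8:25819345-25819671) scored 104, the highest of the 16, with 22.7% of peaks scoring higher. It lay 10995 bp downstream of the Star TSS, in intron 13 of 15 of Ash2l, a neighbouring gene that encodes a subunit of histone H3 lysine methyltransferase complexes. The authors' annotation gives Star as the gene with the nearest TSS.

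Cyp11a1 encodes the P450 that cuts the side chain of cholesterol. It had a broad peak and a weaker, narrower one upstream of the TSS that the authors' distances refer to. The closer peak (chr9:58012293-58013053) scored 92 at 2344 bp upstream, and the farther (chr9:58009076-58009358) scored 33 at 5800 bp upstream, with 28.7% and 89.4% of all peaks scoring higher. The closer peak was 761 bp wide, and 15 of 2374 peaks (0.632%) were wider. The other 15 peaks of the steroid genes were 268 to 393 bp wide. The median width over all 16 was 310 bp, against 342 bp over all peaks. The centres of the Cyp11a1 peaks were 3456 bp apart, and neither reached the promoter printed above, which ends at the TSS.

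The class of the Cyp11a1 peaks depended on the transcript model. The authors' annotation called both intergenic. RefSeq gives the gene a further start at 57998024, so that its span (chr9:57998024-58027031) holds both peaks, 11.2 kb and 14.6 kb downstream of that start. The TSS behind the authors' distances of 2344 and 5800 bp was 65 bp from the RefSeq start at 58014952. From that RefSeq start the peak centres lay 2279 and 5735 bp upstream.

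**Figure D2:**
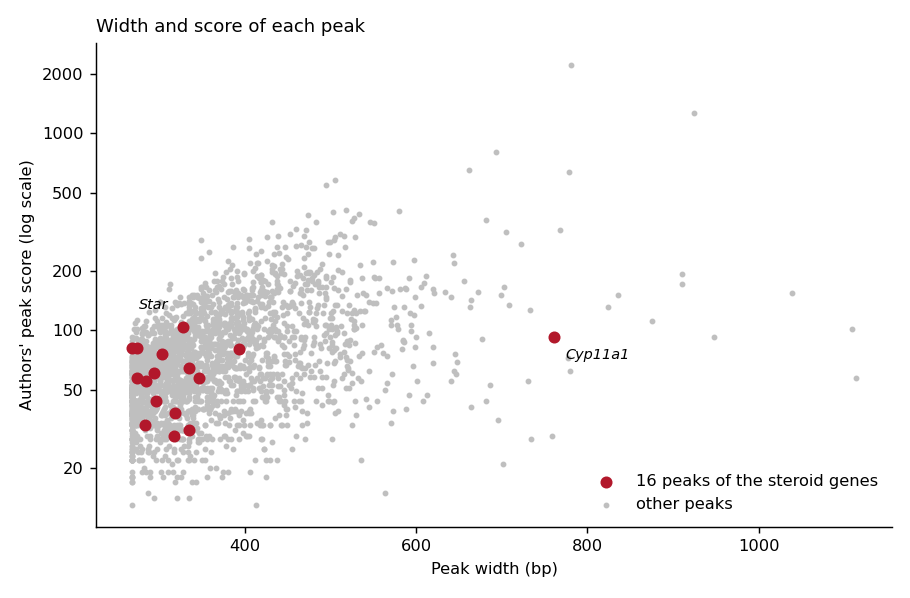
Width in bp (x axis) and authors' score (y axis, log scale) of each peak, with the 16 peaks of the steroid genes in red and the other peaks in grey. The Cyp11a1 peak of 761 bp stands apart from the other red points, which lie between 268 and 393 bp, and the highest red point is the Star peak of score 104.

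Fdxr, the reductase that feeds electrons to mitochondrial P450 enzymes, had 3 peaks within 9.3 kb of each other. The strongest (chr11:115272948-115273340) scored 80 and lay in intron 2 of 11, 3825 bp downstream of the TSS, with a width of 393 bp. The promoter peak (chr11:115277197-115277492) scored 44 at 375 bp upstream and covers the start of the Fdxr sequence printed above. The third (chr11:115282267-115282584) scored 38 at 5456 bp upstream, at the transcription end site of Fads6, a fatty acid desaturase family gene. The promoter peak was thus weaker than the intronic one, with 76.2% and 38.1% of all peaks scoring higher.

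Fdx1, the ferredoxin that takes the electrons from FDXR, had no peak. The nearest (chr9:52105525-52105819) scored 62 and lay 142.1 kb upstream, assigned to the microRNA gene Mir6244. On the other side the closest peak (chr9:51799285-51799571) scored 76 at 164.2 kb from the TSS, in intron 2 of 14 of Arhgap20. The gap between these peaks was 306.2 kb, against a median gap between neighbouring peaks of 381 kb. A closer peak than that of Fdx1 was found for 34.6% of protein-coding genes, measured from the gene span.

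Hsd3b1, whose product makes progesterone, stood farthest from any peak among the 10 genes. The nearest (chr3:98057007-98057395) scored 39 and lay 802.6 kb downstream of its TSS, in intron 2 of 33 of Notch2. Upstream the first peak (chr3:101367223-101367541) scored 117 at 2508 kb, near Igsf3. The stretch of 3310 kb between them holds 28 protein-coding genes, among them 6 genes of the Hsd3b cluster. Of the 2354 gaps between neighbouring peaks on a chromosome, 175 (7.43%) were longer. A closer peak was found for 74.5% of protein-coding genes. The Hsd3b genes are related copies, and whether reads could be placed uniquely there was not tested.

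The enzymes of androgen and oestrogen synthesis each had a single peak of score near the median, some 30 kb from the TSS in the authors' annotation. The Cyp19a1 peak (chr9:54222580-54222914) scored 64, with 53.3% of all peaks scoring higher, and was annotated as intergenic at 29305 bp upstream. RefSeq gives this gene 3 starts, and the peak lies inside its span (chr9:54165937-54268164), 6.2 kb downstream of the middle start and 45.4 kb downstream of the most distant one. Its centre was 29.0 kb upstream of the proximal start. No other peak lay within 415 kb of it. Which start granulosa cells used was not measured here.

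The Cyp17a1 peak (chr19:46643072-46643417) scored 57, with 61.0% of all peaks scoring higher. It lay 29756 bp downstream of the Cyp17a1 TSS and 23.9 kb outside the gene span (chr19:46667165-46673000), in intron 1 of 3 of the neighbour Wbp1l. Other peaks in this stretch, at 48 in exon 1 of Wbp1l and at 66 in the same intron, were assigned to Wbp1l. A peak of score 33 stood at the promoter of As3mt, an arsenic methyltransferase gene, 34.5 kb upstream of the Cyp17a1 TSS. The peak counted for Cyp17a1 is thus 1 of 4 within 100 kb of the gene, and the other 3 were assigned to its neighbours.

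The nuclear receptor genes had peaks spread over longer distances. Nr5a1, the gene of SF-1 (chr2:38692656-38714542, minus strand), had an intergenic peak on each side. The upstream peak (chr2:38717484-38717786) scored 76 at 3093 bp upstream, and the peak past the far end of the gene (chr2:38689949-38690242) scored 61 at 24447 bp downstream of the TSS, which is 2.6 kb beyond the gene span. The share of all peaks scoring higher was 41.2% for the upstream peak and 57.0% for the other.

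Nr5a2, the gene of LRH-1 (chr1:136842562-136960448, minus strand), had 4 peaks, none within 50 kb of a TSS. The weakest (chr1:136873525-136873841) scored 29 in intron 8 of 8, 86765 bp downstream. The other 3 were intergenic and upstream. They scored 55 at 114698 bp (chr1:137075005-137075288), 57 at 167581 bp (chr1:137127893-137128166) and 81 at 278209 bp (chr1:137238521-137238794). The most distant peak was thus the strongest, and no other protein-coding gene lay between these peaks and the Nr5a2 TSS. A peak of score 114 (chr1:136786225-136786654), higher than any counted for Nr5a2, lay 56.1 kb beyond the other end of the gene and was assigned to the noncoding gene Platr22. The RefSeq table gives Nr5a2 a further start 6818 bp inside the gene, which brings the intronic peak to 79.9 kb.

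Lhcgr, the receptor gene, had a single weak peak (chr17:88864533-88864867) of score 31 at 72724 bp upstream, with 91.6% of all peaks scoring higher. This peak lies between Lhcgr (chr17:88716384-88792059) and Fshr, the gene of the follicle-stimulating hormone receptor (chr17:88984952-89200675). It is 72.6 kb from the span of Lhcgr and 120.3 kb from that of Fshr. The next peak was 355.5 kb away.

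**Figure D3:**
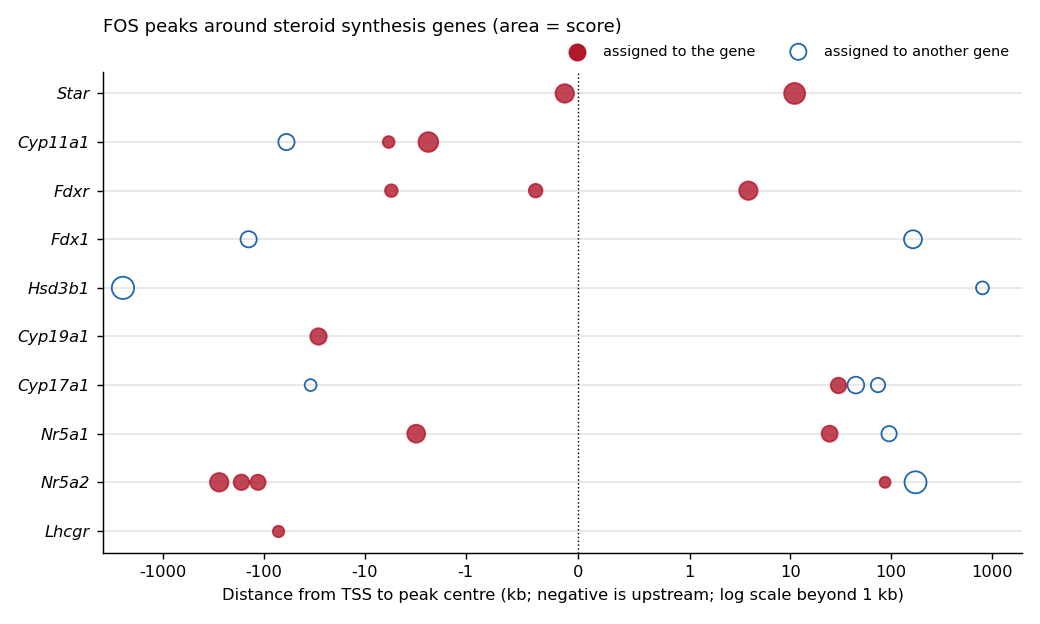
Signed distance in kb from the TSS of each gene to peak centres (x axis, log scale beyond 1 kb, negative upstream), with point area proportional to score. Filled points are the 16 peaks assigned to the genes, and open points are peaks within 100 kb of a gene span assigned to other genes, with the flanking peaks of Fdx1 and Hsd3b1. Star, Cyp11a1, Fdxr and Nr5a1 have filled points within 10 kb, while those of Nr5a2 and Lhcgr lie beyond 50 kb.

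By position the genes differed. Of the 16 peaks, 7 (43.8%) lay within 10 kb of the authors' TSS, against 38.3% of all peaks, and 5 (31.2%) lay beyond 50 kb, against 26.8%. The 7 proximal peaks belonged to Star, Cyp11a1, Fdxr and Nr5a1, the 5 distal ones to Nr5a2 and Lhcgr, and the other 4 to Star, Cyp19a1, Cyp17a1 and Nr5a1. The median distance was 17.7 kb, against 18.2 kb over all peaks. Peaks upstream of the authors' TSS numbered 11 of 16 (68.8%), against 44.6% of all peaks. The Cyp11a1 and Cyp19a1 peaks, counted among these 11, lie downstream of other RefSeq starts of their genes. By class 9 of the 16 were intergenic (56.2%, against 35.4%), 4 intronic (25.0%, against 44.7%), 2 at promoters (12.5%, against 15.2%) and 1 at a transcription end site (6.25%, against 1.56%). The Cyp11a1 and Cyp19a1 peaks, 3 of the 9 intergenic ones, lie inside RefSeq gene spans. Only the peaks of Cyp11a1 and Fdxr had another peak within 10 kb, 5 of 16 (31.2%), against 10.9% of all peaks.

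How many of the 10 genes counted as having a peak was 7 or 8 under the rules of assignment, and was lower when peaks had to be close or strong. With the nearest gene alone it was 8 of 10, against 7.58% of protein-coding genes. With any peak within 50 kb of the gene span it was 7, those 8 without Lhcgr, against 18.2%. With any peak within 100 kb of a TSS it was 8, against 24.4% of the 17495 genes for which a TSS was taken. For 3 of these 8, Star, Cyp17a1 and Nr5a1, the TSS was itself read from their assigned peaks, so they were bound to pass. Among the 7 with a RefSeq start 5 had such a peak, against 24.4% of 17492 genes. With assigned peaks within 100 kb of the TSS it was 8, against 7.89%. Within 10 kb it was 4, namely Star, Cyp11a1, Fdxr and Nr5a1, against 3.85%. With scores at or above the median it was 5, those 4 and Nr5a2, against 4.75%. With scores at or above the upper quartile Star alone was left, against 2.55% of protein-coding genes.

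**Figure D4:**
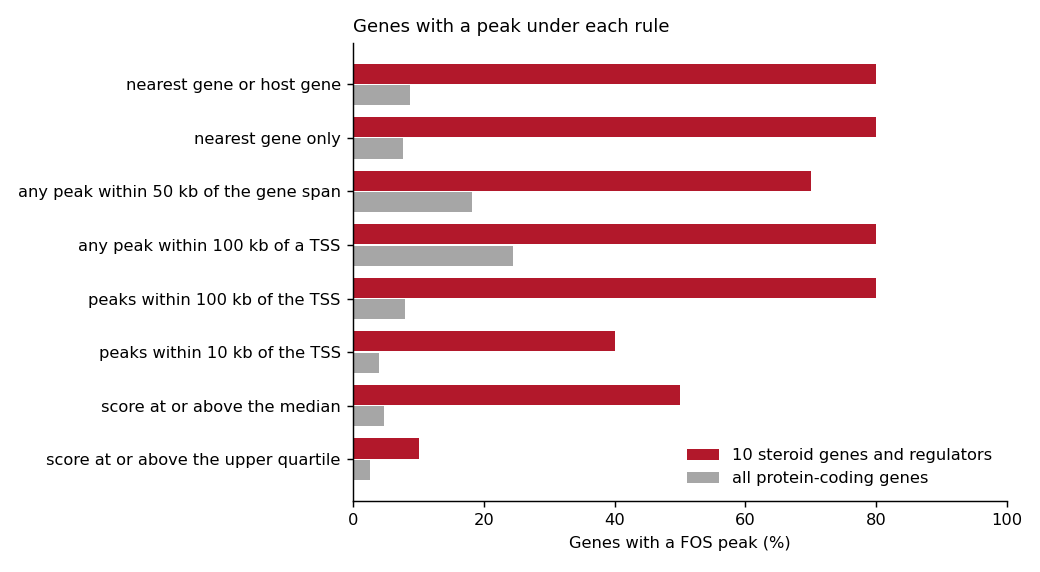
Percentage of genes with a FOS peak (x axis) under each of 8 rules for the 10 steroid genes and regulators (red) and all protein-coding genes (grey; for the rule of 100 kb from a TSS, the 17495 genes with one). Red bars run from 10% to 80% and grey bars from 2.55% to 24.4%. Under the rule of 100 kb from a TSS, 3 of the genes were bound to pass, their TSS being read from their own peaks. Of the 7 with a RefSeq start 5 passed. The 10 genes were chosen with earlier results of these data known.

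Motifs were searched on both strands of the 11 promoter entries of Cyp11a1, Fdxr, Fdx1, Hsd3b1, Cyp19a1, Nr5a2 and Lhcgr, over 250 bases before and 50 after each start. The AP-1 motif TGANTCA was in 0 of 11, against 6.99% of 21263 promoters of protein-coding genes, and the cAMP element TGACGTCA was also in 0, against 2.23%. The receptor motif AAGGTCA, bound by NR5A1 and NR5A2, was in 0, against 4.08%. The cAMP half-element TGACG was in 1 promoter, the distant start of Cyp11a1, against 23.6%. The GATA motif AGATAA was in 2, of Hsd3b1 and Nr5a2, against 9.65%. The C/EBP motif TTGCNNAA was in 2, of Cyp11a1 and Nr5a2, against 10.2%. The windows end 250 bases upstream, and of the peaks of these 7 genes all but the Fdxr promoter peak lie outside them. Star, Cyp17a1 and Nr5a1 had no promoter entry and were not searched, although Star had a promoter peak. With 11 entries, 0 matches cannot be told from shares of 2.23% to 6.99%, and no difference was tested.

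With the AP-1 motif relaxed to TGANTNA, 4 of 11 promoters held a match, against 32.2% of all. The stretches around those of Nr5a2 (chr1:136960657-136960698), Hsd3b1 (chr3:98859924-98859970) and Fdx1 (chr9:51963692-51963738), all on the minus strand, are printed to show the words found, in capitals. The Nr5a2 stretch holds 2 overlapping matches, 239 to 229 bases before the TSS. Those of Hsd3b1 and Fdx1 begin 156 and 116 bases before it. Fdx1 and Hsd3b1 are the genes without a peak, and the Nr5a2 peaks lie far from this promoter, so no peak covers any of these words.
Nr5a2: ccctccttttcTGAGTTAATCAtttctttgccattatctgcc
Hsd3b1: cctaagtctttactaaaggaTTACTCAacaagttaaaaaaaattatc
Fdx1: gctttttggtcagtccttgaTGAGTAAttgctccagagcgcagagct

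Among other genes of the pathway, the transcriptional regulators had peaks most often. Of 22 regulators of steroid genes 10 had a peak (45.5%), to be read against 8.69% of all protein-coding genes. Esr2, which encodes oestrogen receptor beta, had one of score 139 in intron 4 of 7. Zfpm2, a cofactor of GATA factors, had one of score 112 in intron 5 of 7. Sik1, a kinase that restrains CREB coactivators, had peaks of score 109 and 60 on either side, and Nrip1, a corepressor of nuclear receptors, had peaks of score 102 and 80 upstream. The other 6 were Nr4a1, Nr4a2, Crtc3, Cebpb, Cebpa and Creb1, with scores of 24 to 99. The Creb1 peak, in exon 7 of 7, was assigned to Mettl21a. With the nearest gene alone the count was thus 9 of 22 (40.9%), against 7.58% of protein-coding genes. Nr0b1, which encodes the NR5A1 repressor DAX-1, and Gata4, Gata6 and Foxl2 were among the 12 without a peak.

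Further enzymes and cholesterol carriers had fewer. Of 19 other steroid enzymes 3 had a peak (15.8%, against 8.69% of all protein-coding genes). Hsd17b12, a 17-beta dehydrogenase that also serves fatty acid elongation, held one of score 151 in intron 7 of 10, which the annotation assigned to Alkbh3. Por, the electron donor of microsomal P450 enzymes, had one of score 60 at 5703 bp upstream, and Hsd17b1, which makes oestradiol in granulosa cells, had one of score 19 in exon 5 of 6. Of 12 genes of cholesterol delivery 3 (25.0%) had a peak, namely Npc1, an exporter of lysosomal cholesterol (77), Acbd3 (67) and Soat1, which esterifies cholesterol (49). Scarb1, Stard3 and Tspo were among those without one. None of the 14 genes of gonadotropin receptor signalling, Fshr, Gnas and Prkar2b among them, had a peak. The lists are short and their genes are not replicates, so whether these shares differ from 8.69% was not tested.

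Lists of cell type markers were read in the same way. A peak is no measure of expression, so they do not test which cells were in the sample. Of 8 granulosa markers 4 had a peak (Gja1, Esr2, Inhba and Hsd17b1), against 8.69% of all protein-coding genes. With peaks within 100 kb of the TSS it was 3, because the Gja1 peaks lay 109.5 kb or more away. The Hsd17b1 peak scored 19, with 98.6% of all peaks scoring higher. Esr2 and Hsd17b1 were already counted above, with the same peaks, among the regulators and the other steroid enzymes. Of 7 theca and interstitial markers 1 had a peak, which was Cyp17a1 itself. Of 5 endothelial markers 1 had a peak, which was Cdh5, and that peak was assigned to Gm29682. None of 5 leukocyte and 5 oocyte markers had one. Lists this short cannot be told from the 8.69% of all protein-coding genes where 0 or 1 gene had a peak.

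**Figure D5:**
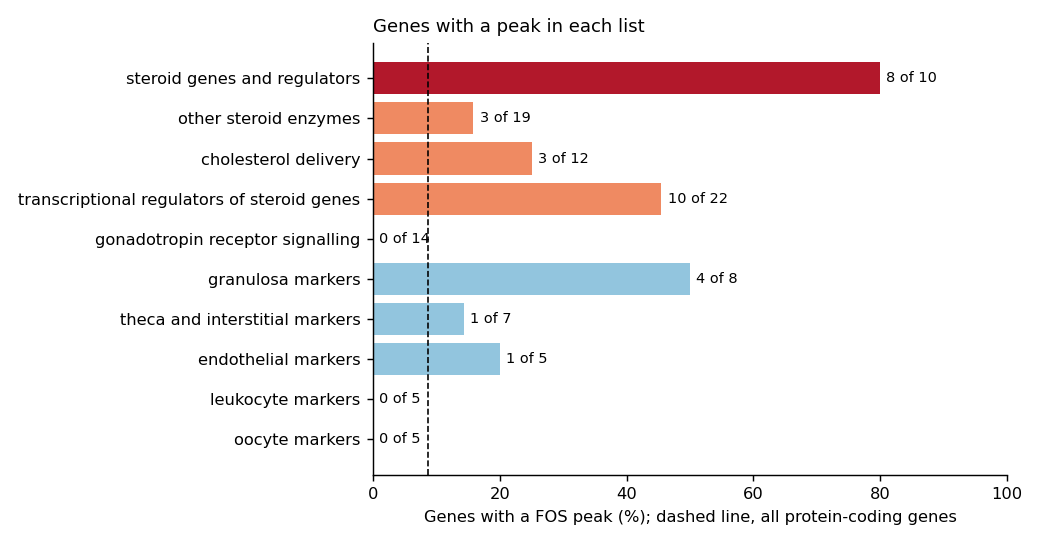
Percentage of genes with a FOS peak (x axis) in the 10 steroid genes and regulators (dark red), 4 lists of related pathway genes (orange) and 5 lists of cell type markers (blue), with the count beside each bar and a dashed line at 8.69% for all protein-coding genes. The steroid genes and regulators stand at 8 of 10, the transcriptional regulators at 10 of 22, and gonadotropin receptor signalling at 0 of 14. Some lists share genes, and genes and lists were chosen with earlier results of these data known.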

How the data were processed

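The data were the authors' list of narrow peaks from 1 FOS ChIP-seq library. Per the file headers, a narrowPeak file was annotated with annotatePeaks of HOMER. Reads were handled with MACS2 2.2.7.1, BWA, deepTools 3.5.1 and Trim Galore on mm10, per the submitters' processing notes. The peak threshold and any control library are not given in the sources used. The deposited peak score is the authors' score, per the file headers, and was used to describe and rank peaks within the list. The deposited files hold no read counts, so depth is unknown.

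All 1965 gene names matched a RefSeq table of GRCm38.p6, as did 1311 of 1314 names in brackets. Authors' TSS positions were taken from peak centres and signed distances. RefSeq starts and promoter sequences came from a RefSeq table. Gaps and distances were measured from peak centres, and the scan for motifs and distances was tested on simulated data. The 10 genes, the gene lists and the rules were chosen with earlier results of these data known. Values are given for every peak of the 10 genes and, in other lists, for up to 4 genes with the highest score. A few items are not reported here. No statistical test was run: genes and peaks of 1 library are not replicates. Python 3.11.15, numpy 2.4.6, pandas 2.3.3 and matplotlib 3.10.9 were used.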

Additional observations from a re-analysis of the deposited data

How the results depend on the processing

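Assignment changed little and thresholds changed much. Under the rule of any peak within 100 kb of a TSS, however, 3 of the 8 genes were bound to pass. The count of genes with a peak (8) was 4 within 10 kb of the TSS, 5 with scores at or above the median and 1 at or above the upper quartile. Their 16 peaks became 7, 6 and 1 under the same settings. Promoter peaks numbered 2 by class and 5 within 5 kb of the TSS. The other steroid enzymes with a peak, 3, became 1 at or above the median score. Of the 11 promoter entries searched, 0 had an AP-1 match, and 4 had one with the relaxed word TGANTNA. Other steroid enzymes with a peak were 2 with the nearest gene alone, and genes of cholesterol delivery were 2, in place of 3, at or above the median score. The remaining alternatives moved counts by less than 1.5 times. The median score of 59 became 61 within 100 kb of the TSS and 78 over the best peak of each gene. Because the score thresholds remove peaks by construction, lower counts follow from them for any gene. No paired analysis was possible because the series has 1 FOS library and no result comes from a test. Without replicates no library could be left out. Depth is unknown, so an absent peak is not shown to be absent binding.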

Other observations

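Of 93 genes in the pathway and marker lists, with Cyp17a1 counted among the theca markers, 73 had no peak, and 9 of the 73 (12.3%) had a peak assigned to another gene within 50 kb of the gene span. That is near the 11.1% (2227 of 19985) of all protein-coding genes without a peak of their own. Those named here were chosen after their values were seen. Gata4, a factor of steroidogenic cells, was 20.9 kb from a peak of score 180 in exon 3 of 10 of Fdft1, the gene of squalene synthase. Prkar1a, a regulatory subunit of PKA, was 27.6 kb from a peak of score 118 assigned to Wipi1, and Prkaca, a catalytic subunit, was 36.6 kb from a peak of score 79 in intron 10 of 13 of Il27ra. Sp3 was 33.8 kb from a peak of score 101, and Sult1e1, the oestrogen sulfotransferase, 31.3 kb from a peak of score 53. The granulosa markers Amh and Inha were 46.3 and 38.9 kb from peaks of score 66 and 51. The oocyte marker Zp3 was 4.0 kb from a peak of score 86 assigned to Ssc4d. Which gene any of these peaks serves was not tested.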
